A study of Mus musculus with 6 samples.

Results

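The 10 genes that carry the light response of cone photoreceptors were examined in whole mouse retina after saline or microbead injection. They are the cone opsins *Opn1sw* and *Opn1mw*, the transducin subunits *Gnat2*, *Gnb3* and *Gngt2*, the phosphodiesterase subunits *Pde6c* and *Pde6h*, the channel subunits *Cnga3* and *Cngb3*, and the arrestin *Arr3*. The members were picked out by gene symbol, from a list made with earlier results of these data known. All 10 were found among the 31169 genes of the count table. All 10 passed the filter on low counts that left 17707 genes for testing. RNA was measured in 3 saline-injected and 3 microbead-injected retinas of C57BL/6 mice. The mice were males that received an intracameral injection of saline or of 15 μm microbeads in both eyes at 1 month of age, and retinas were collected 4 weeks later, at 2 months. Microbeads obstruct the outflow of aqueous humor and raise intraocular pressure, and the control retinas were therefore injected and not naïve. The labels do not state whether the libraries of a group came from separate animals, so that the p-values measure the spread between these libraries.

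Cones respond to bright light and color, and in the nocturnal mouse they are a small minority beside the rods. When a cone opsin absorbs light, it activates the α subunit of cone transducin, which releases a phosphodiesterase from its inhibitory subunit. The phosphodiesterase hydrolyzes cyclic GMP, the cyclic nucleotide-gated channel closes, and the cell hyperpolarizes, until arrestin binds the phosphorylated opsin and ends the signal. Many mouse cones hold both opsins, with the short-wavelength opsin dominant in ventral retina and the middle-wavelength opsin in dorsal retina.

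Of the 10 cone genes, 1 was past the threshold and higher in microbead-injected retina, the cone arrestin *Arr3* (2.71-fold), and 0 were past the threshold and lower. The threshold was an adjusted p-value under 0.05 from edgeR's quasi-likelihood test over the 17707 genes. Across all tested genes, 12.8% passed it, and 6.46% passed it and were higher, so that the cone genes' count lies near the background. At an unadjusted p-value under 0.05, 3 of the 10 cone genes passed, against 31.4% of all genes. The level is given as CPM, the count of a gene per 1000000 counts of the library after TMM scaling. In CPM, the groups did not overlap for 3 of the 10 genes (*Arr3*, *Gngt2* and *Pde6h*), against 37.8% of all genes. The fitted change was upward for 5 of the genes and downward for the other 5, with a median log2 fold change of 0.03, against -0.03 over all tested genes. Within each library, the balance among the cone genes was also compared. Of 7 ratios, all chosen with values of these data known, 4 separated the groups without overlap. These were *Opn1mw* to *Opn1sw*, arrestin to opsin, *Gngt2* to *Gnat2* and *Pde6h* to *Pde6c*. For ratios, no share over all genes was computed.

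**Figure D1:**
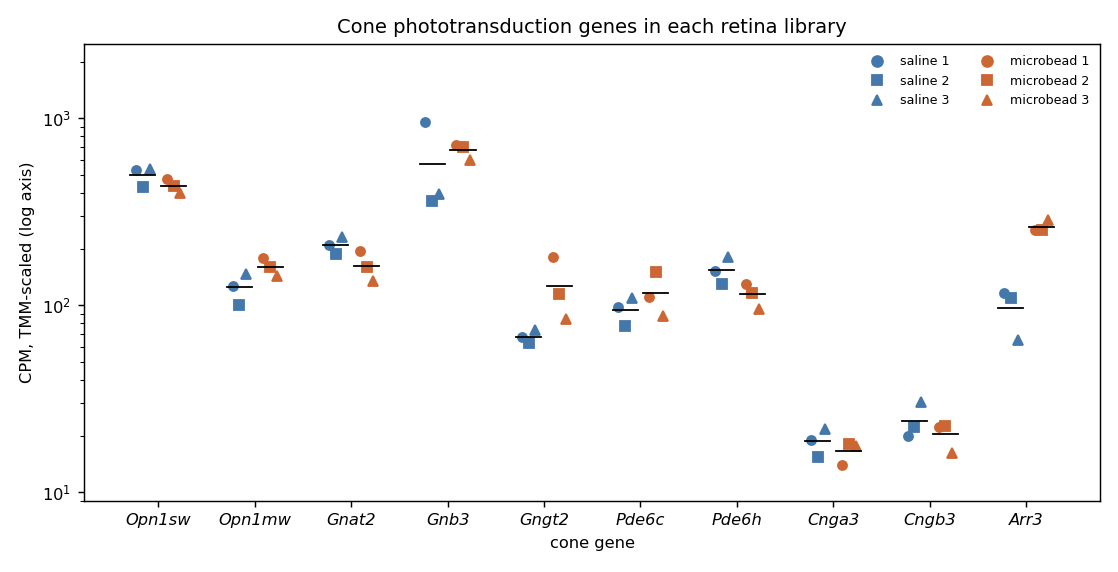
CPM of each cone gene on a log axis in the 3 saline (blue) and 3 microbead (orange) libraries, with the replicate as the symbol and the group mean as a line. *Arr3* sits between 251.7 and 285.5 CPM in microbead-injected retina and between 65.0 and 116.7 CPM in saline-injected retina, while the *Gnb3* value of saline replicate 1 (957.2 CPM) lies above all others of that gene.

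Total counts ran from 36085737 to 46481382 in the saline and from 13574949 to 19834366 in the microbead libraries. No cone gene had fewer than 251 counts in a library (counting error 6.31%), so that depth limits these genes less than the spread between retinas. The library names of the saline retinas belong to one series and those of the microbead retinas to another, so that series and treatment cannot be told apart. The genes of the mitochondrial genome held 3.19 to 3.57% of the counts in the saline and 8.90 to 10.6% in the microbead libraries, and with library sizes counted without them *Arr3* was at a log2 fold change of 1.46 (adjusted p = 0.0113 from edgeR). Whole retina holds many cell types, and fewer cones and less RNA per cone cannot be told apart. Saline replicate 1 stood apart in several cell type markers. Its 5 ganglion cell markers summed to 261.1 CPM, against 549.5 to 902.6 CPM in the other libraries, and its 6 pigment epithelium markers to 11.9 CPM, against 56.1 to 243.2 CPM. Saline replicate 3 held 242.6 CPM of lens genes, against 18.4 CPM or less in each other library, and the most Müller glia RNA (6228 CPM in 5 genes, against 2862 to 4139 CPM). Their part in the cone results was not tested, and the range of each gene's log2 fold change with single libraries left out is given with its result.

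Arrestin binds the activated and phosphorylated opsin and stops it from activating more transducin, and *Arr3* encodes the form known as cone arrestin. *Arr3* (ENSMUSG00000060890.11) lies on the forward strand of chromosome X of GRCm38, from 100605497 to 100618493, and its principal coding transcript has 17 exons and encodes 381 amino acids. Its level was 116.7, 109.6 and 65.0 CPM in saline-injected and 251.7, 253.5 and 285.5 CPM in microbead-injected retina. Every microbead library was above every saline library, and the lowest value was that of saline replicate 3. The means were 97.1 ± 28.0 CPM and 264 ± 19.0 CPM (SD, n = 3 each). The log2 fold change was 1.44 (SE 0.23, adjusted p = 0.0126 from edgeR), higher in 3 of 3 microbead retinas. The adjusted p-value lay between 5.36e-07 and 0.0412 over the 11 alternatives with all 6 libraries. When single libraries were omitted, the change lay between 1.22 and 1.59, and edgeR's adjusted p-value was under 0.05 in 5 of the 6 fits, the exception being the fit without microbead replicate 3 (1.37, adjusted p = 0.0700 from edgeR). Without saline replicate 3, the library with the most lens RNA, the change was 1.22. Against the rod arrestin *Sag*, whose log2 fold change was -0.18 (adjusted p = 0.625 from edgeR), the ratio of *Arr3* to *Sag* CPM was 0.0204, 0.0236 and 0.0119 in saline-injected and 0.0419, 0.0579 and 0.0790 in microbead-injected retina. The groups did not overlap (p = 0.1 in an exact permutation test, two-sided, a floor set by 3 libraries against 3).

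Relative to the summed CPM of both opsins, its substrates, *Arr3* stood at 0.178, 0.206 and 0.0953 in saline-injected retina and at 0.386, 0.428 and 0.525 in microbead-injected retina. The mean log2 ratio was 1.54 higher after microbead injection, without overlap (two-sided exact permutation test, p = 0.1). *Arr3* made up 5.34 ± 1.85% of the summed cone CPM in saline-injected and 12.7 ± 2.24% in microbead-injected retina (SD, n = 3 each). The nearest protein-coding gene, *Pdzd11*, on the opposite strand 4390 bases away, had a log2 fold change of 0.77 (adjusted p = 0.0329 from edgeR) and was chosen after its values were seen. No annotated gene overlaps *Arr3*, and 0% of its 100-base stretches occur in transcripts of another gene.

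The opsins are the light-absorbing proteins, *Opn1sw* for short and *Opn1mw* for middle wavelengths. *Opn1sw* (ENSMUSG00000058831.13) lies on the reverse strand of chromosome 6, from 29376671 to 29388468, and *Opn1mw* (ENSMUSG00000031394.11) on the forward strand of chromosome X, from 74127464 to 74150760. *Opn1sw* was at 528.4, 431.1 and 535.5 CPM in saline-injected and at 471.3, 432.7 and 400.9 CPM in microbead-injected retina. *Opn1mw* was at 126.1, 100.6 and 147.3 CPM in saline-injected and at 180.1, 160.0 and 143.4 CPM in microbead-injected retina. For both opsins the groups overlapped, through saline replicate 2 for *Opn1sw* and through saline replicate 3 for *Opn1mw*. The log2 fold change was -0.20 for *Opn1sw* (SE 0.17, adjusted p = 0.471 from edgeR) and 0.37 for *Opn1mw* (SE 0.19, adjusted p = 0.218 from edgeR), and neither passed the threshold in any of the 17 alternatives. With 1 library left out, *Opn1sw* ran from -0.29 to -0.14 and *Opn1mw* from 0.23 to 0.51, the ends being those without saline replicates 2 and 3. The summed opsin CPM was 623 ± 80.3 in saline-injected and 596 ± 53.6 in microbead-injected retina (SD, n = 3 each), with overlap between the groups.

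The balance between the opsins separated the groups. *Opn1mw* made up 19.3, 18.9 and 21.6% of the opsin CPM in saline-injected and 27.7, 27.0 and 26.3% in microbead-injected retina. The microbead libraries were all above the saline libraries, and the spread within each group was small, with means of 19.9 ± 1.44% and 27.0 ± 0.653% (SD, n = 3 each). The difference was 7.08 percentage points (two-sided exact permutation test, p = 0.1, the floor of the design) and lay between 6.58 and 7.90 points with each library left out in turn. This share is formed within a library and does not depend on how libraries were scaled. Of the exon bases of *Opn1sw*, 15.5% overlap exons of *Calu* on the opposite strand, and the strand setting of the counting is not given in the sources used here. *Calu*, which encodes a calcium-binding protein of the secretory pathway, was at 145.2 to 184.1 CPM in saline-injected and 145.4 to 164.9 CPM in microbead-injected retina (log2 fold change -0.09, adjusted p = 0.757 from edgeR). *Opn1mw* shares no exon bases with another annotated gene.

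**Figure D2:**
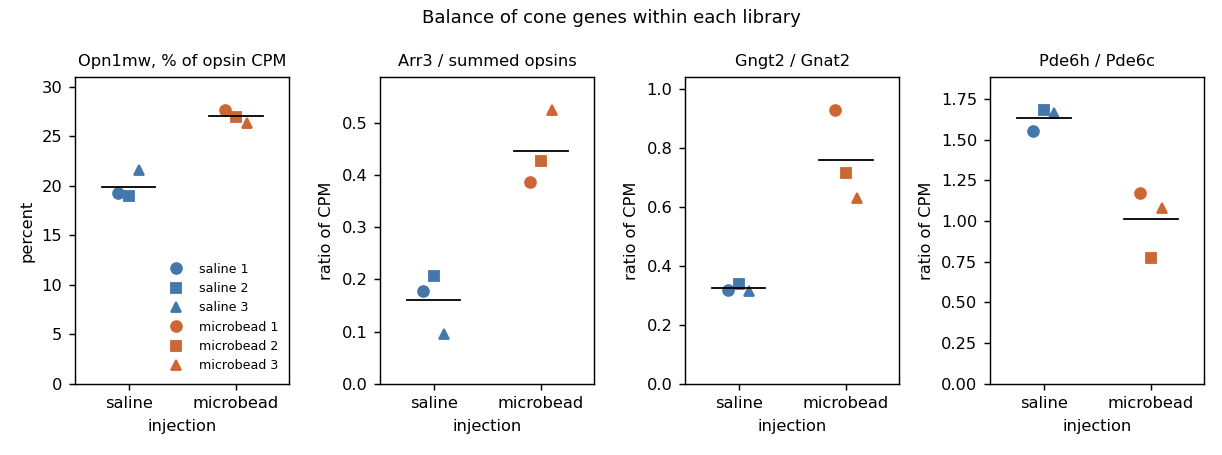
Values within each library for saline (blue) and microbead (orange) injection, with the replicate as the symbol and the mean as a line. From left to right, the axes show *Opn1mw* as a percentage of opsin CPM, *Arr3* CPM over summed opsin CPM, *Gngt2* CPM over *Gnat2* CPM, and *Pde6h* CPM over *Pde6c* CPM. In each panel the 3 microbead libraries lie apart from the 3 saline libraries, higher in the first 3 panels and lower in the last.

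The 250 bases upstream of the start site are printed for *Arr3*, which was past the threshold, and for the opsins, whose balance differed between the groups. They are from RefSeq on GRCm38.p6, read 5′ to 3′ along the gene's strand, at chrX:100605247-100605496 (forward), chr6:29380514-29380763 (reverse) and chrX:74127216-74127465 (forward). Capitals mark TAATC on either strand (GATTA when reversed), the core recognized by the photoreceptor homeodomain factors CRX and OTX2.
Arr3: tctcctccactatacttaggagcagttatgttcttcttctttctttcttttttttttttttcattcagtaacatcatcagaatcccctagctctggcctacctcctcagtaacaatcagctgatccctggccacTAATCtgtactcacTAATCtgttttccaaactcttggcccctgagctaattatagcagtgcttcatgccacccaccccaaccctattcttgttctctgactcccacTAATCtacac
Opn1sw: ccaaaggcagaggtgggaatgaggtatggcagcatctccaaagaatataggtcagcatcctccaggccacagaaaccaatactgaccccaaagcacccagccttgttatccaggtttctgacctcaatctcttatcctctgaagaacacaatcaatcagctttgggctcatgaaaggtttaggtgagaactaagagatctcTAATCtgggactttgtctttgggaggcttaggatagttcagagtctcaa
Opn1mw: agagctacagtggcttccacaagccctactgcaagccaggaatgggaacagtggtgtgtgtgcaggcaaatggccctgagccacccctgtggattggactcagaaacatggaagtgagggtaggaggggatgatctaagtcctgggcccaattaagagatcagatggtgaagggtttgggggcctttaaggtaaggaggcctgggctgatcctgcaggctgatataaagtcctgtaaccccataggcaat
The *Arr3* window holds 3 copies, all on the gene's strand and the nearest starting 10 bases before the start site, the *Opn1sw* window holds 1, and the *Opn1mw* window holds 0. Of 32851 promoter windows of the same length, 19.8% hold at least 1 copy and 0.554% at least 3. The hexamer AGGTCA, bound by thyroid hormone and related nuclear receptors, was searched on both strands. It occurs 2 times in the *Opn1sw* window and 0 times in the windows of *Arr3* and *Opn1mw*. Of all windows, 14.0% hold at least 1 copy and 1.36% at least 2. The motifs were chosen after the sequences had been seen, and a match describes letters in a window and not a bound site. Windows of *Gnat2* (1 copy of TAATC), *Pde6h* (0) and *Cnga3* (0 in each of its windows) were also searched. *Gnb3*, *Gngt2*, *Pde6c* and *Cngb3* were not searched.

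Cone transducin consists of *Gnat2*, the α subunit that carries the signal to the phosphodiesterase, and of the β and γ subunits *Gnb3* and *Gngt2*, which hold it at the membrane and present it to the opsin. *Gngt2* (ENSMUSG00000038811.13, chromosome 11, 95837216 to 95845734, forward strand) encodes 69 amino acids. It was at 67.4, 63.2 and 73.4 CPM in saline-injected and at 180.4, 114.4 and 84.5 CPM in microbead-injected retina. Every microbead library was above every saline library, but the microbead libraries differed among themselves more than the saline libraries did, with means of 68.0 ± 5.14 CPM and 126 ± 49.1 CPM (SD, n = 3 each). The log2 fold change was 0.90 (SE 0.26, adjusted p = 0.0507 from edgeR), just outside the threshold. It was inside the threshold in 6 of the 11 alternatives with all libraries, among them DESeq2 (0.90, adjusted p = 0.0108), which called 2 of the 10 cone genes against 17.9% of all genes. Over these alternatives the adjusted p-value ran from 0.00509 to 0.148. With each library left out in turn it was between 0.0712 and 0.157 from edgeR, and the log2 fold change ran from 0.54 without microbead replicate 1 to 1.11 without microbead replicate 3. Of the *Gngt2* exon bases, 12.5% overlap *Abi3* on the opposite strand, which held at most 1.75 CPM in any library.

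*Gnat2* (ENSMUSG00000009108.15, chromosome 3, 108092789 to 108101432, forward strand) was at 211.3, 187.2 and 232.7 CPM in saline-injected and at 194.3, 159.8 and 134.4 CPM in microbead-injected retina. The groups overlapped by the value of microbead replicate 1, and the log2 fold change was -0.37 (SE 0.19, adjusted p = 0.214 from edgeR), between -0.52 and -0.26 with 1 library left out. The ratio of *Gngt2* to *Gnat2* was 0.319, 0.338 and 0.316 in saline-injected and 0.929, 0.716 and 0.629 in microbead-injected retina. This mean log2 ratio was 1.21 higher after microbead injection, against an SD between libraries of 0.05 in the saline and 0.29 in the microbead group (two-sided exact permutation test, p = 0.1).

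*Gnb3* (ENSMUSG00000023439.11, chromosome 6, 124834240 to 124840275, reverse strand) encodes the β subunit of cone transducin and is also known from ON bipolar cells. It was at 957.2, 359.6 and 393.0 CPM in saline-injected and at 719.6, 703.9 and 602.1 CPM in microbead-injected retina. Saline replicate 1 was above all microbead libraries and the other saline libraries were below them, so that the result rested on that library. The log2 fold change was 0.24 (SE 0.34, adjusted p = 0.665 from edgeR) with all libraries. Without saline replicate 1 it was 0.84 (adjusted p = 0.0269 from edgeR), in a fit in which 15.1% of all genes passed, and without saline replicate 2 it was -0.0035 (adjusted p = 0.996 from edgeR). *Gnb3* made up 41.7% of the summed cone CPM in saline replicate 1, 24.0 and 22.0% in the other saline libraries, and 31.6 to 33.0% in the microbead libraries. The sum of the 6 bipolar markers in saline replicate 1, 1160 CPM, was near the low end of its range of 1072 to 1512 CPM. The neighbor *P3h3*, which lies 814 bases away on the same strand and was chosen after its values were seen, was at 43.9, 23.9 and 9.26 CPM in saline-injected and at 42.6 to 47.8 CPM in microbead-injected retina (log2 fold change 0.79, adjusted p = 0.241 from edgeR). No annotated gene overlaps *Gnb3*, and 0% of its 100-base stretches are shared.

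**Figure D3:**
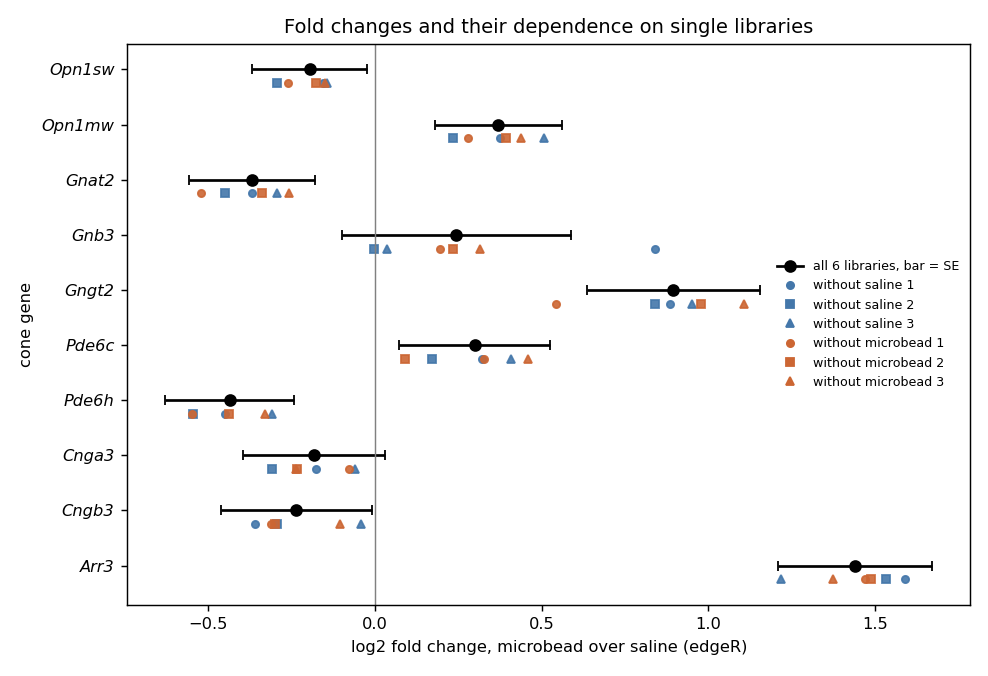
Log2 fold change (microbead over saline, edgeR) of each cone gene with all 6 libraries (black, bar = SE) and, below it, with each library left out (blue, a saline library left out; orange, a microbead library; the symbol gives the replicate). *Arr3* stays between 1.22 and 1.59, while *Gnb3* runs from -0.0035 to 0.84 depending on the library left out.

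The cone phosphodiesterase is built from the catalytic subunit *Pde6c* and the small inhibitory subunit *Pde6h*, which transducin displaces. *Pde6h* (ENSMUSG00000064330.9, chromosome 6, 136923832 to 136968865, forward strand) was at 152.2, 130.7 and 180.9 CPM in saline-injected and at 130.5, 116.9 and 95.3 CPM in microbead-injected retina. The groups did not overlap, but the highest microbead value was only just below the lowest saline value. Its log2 fold change was -0.44 (SE 0.19, unadjusted p = 0.0481 and adjusted p = 0.156 from edgeR), and the adjusted p-value was over 0.05 in all 17 alternatives, with a log2 fold change of -0.55 to -0.31 when 1 library was left out. *Pde6c* (ENSMUSG00000024992.13, chromosome 19, 38132781 to 38183958, forward strand) was at 97.8, 77.7 and 108.8 CPM in saline-injected and at 111.1, 150.8 and 88.1 CPM in microbead-injected retina. Its groups overlapped, with the highest value in microbead replicate 2, and the log2 fold change was 0.30 (SE 0.23, adjusted p = 0.398 from edgeR). It was 0.09 without microbead replicate 2 and 0.46 without microbead replicate 3.

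The ratio of inhibitory to catalytic subunit, *Pde6h* to *Pde6c*, was 1.56, 1.68 and 1.66 in saline-injected and 1.17, 0.776 and 1.08 in microbead-injected retina. The mean log2 ratio was lower by 0.71 after microbead injection (-0.71, SD 0.06 in the saline and 0.32 in the microbead group, two-sided exact permutation test, p = 0.1). *Arhgdib*, on the opposite strand, overlaps 1.73% of the *Pde6h* exon bases and was higher in microbead-injected retina, at 13.3 to 17.8 CPM against 5.12 to 8.01 CPM (log2 fold change 1.27, adjusted p = 0.0181 from edgeR). *Arhgdib* encodes a regulator of small GTPases known from blood and immune cells.

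The channel that closes in the light is formed by *Cnga3*, the subunit that can conduct alone, and the modulatory subunit *Cngb3*. These were the least abundant of the 10 genes. *Cnga3* (ENSMUSG00000026114.14, chromosome 1, 37214434 to 37263384, forward strand) was at 19.0, 15.5 and 21.9 CPM in saline-injected and at 14.0, 18.1 and 17.6 CPM in microbead-injected retina. *Cngb3* (ENSMUSG00000056494.7, chromosome 4, 19280850 to 19510623, forward strand) was at 19.9, 22.3 and 30.2 CPM in saline-injected and at 22.5, 22.7 and 16.3 CPM in microbead-injected retina. The groups overlapped for both. The log2 fold changes were -0.18 (SE 0.21, adjusted p = 0.597 from edgeR) for *Cnga3* and -0.24 (SE 0.23, adjusted p = 0.513 from edgeR) for *Cngb3*, and neither passed the threshold in any alternative. Without saline replicate 3, the library with the most lens RNA, both were near 0, with -0.06 for *Cnga3* and -0.04 for *Cngb3*. The other end of the range was -0.31 for *Cnga3* without saline replicate 2 and -0.36 for *Cngb3* without saline replicate 1. The ratio of *Cngb3* to *Cnga3* overlapped between the groups, at 1.05 to 1.44 in saline-injected and 0.926 to 1.61 in microbead-injected retina (two-sided exact permutation test, p = 0.9).

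In all, 7 ratios among the cone genes were formed, all chosen with values of these data known. The groups did not overlap for 4 of them, namely *Opn1mw* to *Opn1sw*, *Arr3* to summed opsin, *Gngt2* to *Gnat2* and *Pde6h* to *Pde6c*. *Arr3*, *Gngt2* and *Pde6h* did not overlap as single genes either. Of all tested genes, 37.8% did not overlap in CPM, and no such share was computed for ratios. The groups overlapped for *Gnat2* to *Gnb3*, *Gngt2* to *Gnb3* and *Cngb3* to *Cnga3*, the first 2 of which contain *Gnb3*, where saline replicate 1 stood apart. Summed over the 10 genes, CPM was 2296, 1498 and 1789 in saline-injected and 2276, 2133 and 1868 in microbead-injected retina. Without *Gnb3*, the sums were 1339, 1138 and 1396 in saline-injected and 1556, 1429 and 1266 in microbead-injected retina, and the groups overlapped either way.

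Levels can be compared between genes only per length. Per kilobase of the principal coding transcript, the mean saline level fell from *Gnb3* (309 ± 182 CPM per kb) and *Opn1sw* (207 ± 24.2 CPM per kb) through *Gnat2* (102 ± 11.1 CPM per kb) and *Opn1mw* (102 ± 19.0 CPM per kb) to *Arr3* (71.4 ± 20.6 CPM per kb; SD, n = 3 each). *Gngt2* (42.9 CPM per kb), *Pde6c* (36.6 CPM per kb) and *Pde6h* (26.0 CPM per kb) followed, and *Cnga3* (5.28 CPM per kb) and *Cngb3* (5.13 CPM per kb) were lowest. Neighbors in this order had overlapping saline values, except *Opn1sw* and *Gnat2*, *Arr3* and *Gngt2*, and *Pde6h* and *Cnga3*, which did not overlap. By this length, *Arr3* held position 2 in the order by mean level in microbead-injected retina instead of 5 (194 ± 14.0 CPM per kb). Its microbead values (185 to 210 CPM per kb) overlapped those of *Opn1sw* (166 to 196 CPM per kb), and its saline values overlapped those of *Opn1mw*. All these values depend on the length taken. The principal transcript of *Arr3* has 1359 bases, and all its exons together have 2355. By the length of all exons, the mean saline level of *Arr3* was 41.2 CPM per kb. By that length, *Opn1mw* ranked above *Gnat2* and *Cngb3* above *Cnga3* in saline-injected retina. The order in microbead-injected retina was not computed by that length. The principal transcript of *Pde6h* has 5940 bases and encodes 83 amino acids.

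Rods use a parallel set of proteins, and 8 of the cone genes were each set against a rod counterpart within the same library. Of 9 rod genes, 0 passed the threshold (edgeR), against 12.8% of all tested genes, and 3 passed at an unadjusted p-value under 0.05, against 31.4%. The median of their log2 fold changes was -0.18. Of these, *Gnb1*, the rod transducin β subunit, had a log2 fold change of -0.58 (adjusted p = 0.0632 from edgeR) and *Cnga1*, a subunit of the rod channel, of -0.62 (adjusted p = 0.0941 from edgeR), and the groups did not overlap for either. The rod γ subunit *Gngt1* had 0.66 (adjusted p = 0.159 from edgeR), with overlap. The rod α transducin *Gnat1* had 0.37 (adjusted p = 0.256 from edgeR). *Pde6a*, *Pde6b*, *Pde6g* and *Cngb1* had adjusted p-values between 0.391 and 0.769 from edgeR.

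The ratio of cone to rod gene did not overlap between the groups for 4 of the 8 pairs. For single genes, 37.8% of all tested genes did not overlap in CPM. It was higher after microbead injection for *Arr3* to *Sag* (difference of mean log2 ratios 1.69) and *Gngt2* to *Gngt1* (0.25). It was lower for *Gnat2* to *Gnat1* (-0.75) and *Pde6h* to *Pde6g* (-0.71). Each of these gave p = 0.1 in a two-sided exact permutation test, the smallest that the design allows. The cone and rod α transducins moved in opposite directions in the fit, *Gnat2* at -0.37 and *Gnat1* at 0.37, though neither passed the threshold alone. Their ratio was 0.0156, 0.0143 and 0.0137 in saline-injected and 0.0102, 0.0101 and 0.00628 in microbead-injected retina. The other 4 pairs overlapped. For *Gnb3* to *Gnb1* (0.98, exact permutation p = 0.3), saline replicate 1 lay among the microbead libraries and the other saline libraries lay below them.

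**Figure D4:**
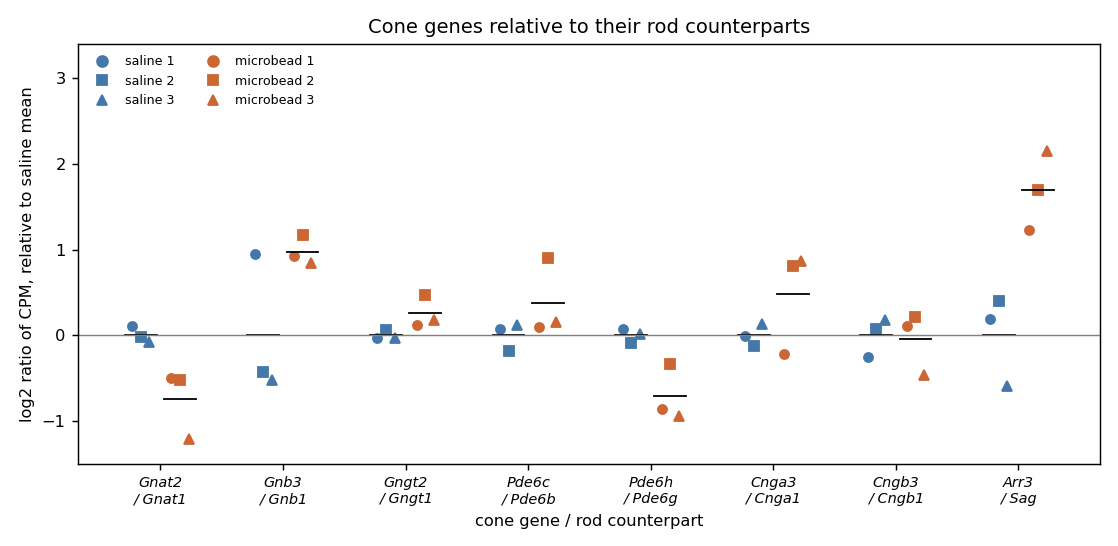
Log2 ratio of the CPM of 8 cone genes to that of a rod counterpart in the 3 saline (blue) and 3 microbead (orange) libraries, with the mean of the saline libraries set to 0, the replicate as the symbol and the group mean as a line. *Arr3* to *Sag* has the largest shift (1.69), and *Gnat2* to *Gnat1* and *Pde6h* to *Pde6g* lie below 0 in all 3 microbead libraries.

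The proteins that shut off the cascade and restore calcium serve cones and rods. Of 11 such genes, 1 passed the threshold, against 12.8% of all tested genes. That gene was higher after microbead injection, 0 genes were lower and 10 did not pass, with a median log2 fold change of -0.34. At an unadjusted p-value under 0.05 from edgeR, 4 of the 11 passed, against 31.4% of all tested genes. The groups did not overlap for 3 of the 11, against 37.8%. Besides the gene that passed, these were *Guca1b* (-0.59, adjusted p = 0.0598 from edgeR) and *Gucy2f* (-0.88, adjusted p = 0.102 from edgeR), both lower. The gene that passed was *Pdc*, which encodes phosducin, a protein that binds the βγ subunits of transducin. *Pdc* was at 1466, 1689 and 2559 CPM in saline-injected and at 4840, 3402 and 3278 CPM in microbead-injected retina, without overlap (log2 fold change 1.01, adjusted p = 0.0362 from edgeR). Of 11 photoreceptor transcription factors, 1 was past the threshold and higher, 3 were lower and 7 did not pass, with a median log2 fold change of 0.00. The groups did not overlap for 6 of the factors. Across all tested genes, 12.8% passed and 37.8% did not overlap.

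The lower factors were *Nrl*, which directs precursors to the rod fate, and *Rora* and *Sall3*, both known to act in opsin expression in cones. *Nrl* was at 1800, 1669 and 2051 CPM in saline-injected and at 1086, 757 and 976 CPM in microbead-injected retina (log2 fold change -0.97, adjusted p = 0.0192 from edgeR). *Rora* was at 252 to 277 CPM in saline-injected and 149 to 181 CPM in microbead-injected retina (-0.73, adjusted p = 0.0248 from edgeR), and *Sall3* at 10.1 to 11.9 CPM and 5.19 to 6.49 CPM (-0.98, adjusted p = 0.0300 from edgeR). The groups did not overlap for these 3 genes. *Neurod1*, a helix-loop-helix factor that maintains photoreceptors and is needed for expression of the thyroid hormone receptor in cones, was higher, at 578 to 608 CPM against 253 to 420 CPM (0.85, adjusted p = 0.0322 from edgeR). Across the rod, shutoff, transcription factor and cone marker lists together, 5 genes passed with all libraries. Without saline replicate 2 or without microbead replicate 3, 0 passed, in fits where 293 and 46 of all genes passed.

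Other genes that mark cones did not pass the threshold. Of 5 such markers, 0 passed (edgeR) and 0 were without overlap between the groups, against 12.8% and 37.8% of all tested genes. The median log2 fold change of the 5 markers was -0.19. *Slc24a2*, a sodium-calcium exchanger of cones that extrudes calcium, had -0.46 (adjusted p = 0.300 from edgeR). The thyroid hormone receptor *Thrb*, which sets middle-wavelength opsin expression, had -0.43 (adjusted p = 0.173 from edgeR). *Ccdc136* had the other sign, at 0.20 (adjusted p = 0.516 from edgeR). *Thrb* was at 89.5, 86.5 and 68.1 CPM in saline-injected and at 56.2, 74.4 and 50.2 CPM in microbead-injected retina. Its groups overlapped through saline replicate 3 and microbead replicate 2. A link between *Thrb* and the balance of the opsins was not tested.

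None of the marker lists of other retinal and neighboring cells had a gene past the threshold (edgeR), against 12.8% of all tested genes. The counts were 0 of 6 for bipolar cells, 0 of 5 for Müller glia and 0 of 5 for ganglion cells. They were 0 of 6 for pigment epithelium, 0 of 4 for blood and 0 of 1 tested for lens. The median log2 fold changes of these lists lay between -0.31 for Müller glia and 0.12 for pigment epithelium. The largest changes among the bipolar markers, the other retinal cells that hold *Gnb3*, were -0.28 for *Prkca* and 0.18 for *Isl1*. Among Müller glia markers they were -0.46 for *Aqp4* and -0.33 for *Kcnj10*. Among ganglion cell markers they were 0.71 for *Rbpms* and 0.56 for *Thy1*, while *Nefl* (-0.46), *Slc17a6* (-0.23) and *Pou4f1* (-0.04) had the other sign. Among pigment epithelium markers they were 0.78 for *Tyrp1* and 0.38 for *Ttr*, while *Rpe65* (-0.21) and *Rgr* (-0.12) had the other sign. Among blood genes they were -0.98 for *Alas2* and -0.45 for *Hba-a1*, while *Hbb-bt* (0.19) and *Hbb-bs* (0.04) had the other sign. The tested lens gene *Bfsp1* had 0.01. The library with the most lens and Müller glia RNA, saline replicate 3, held the least *Arr3*. Saline replicate 1, with the least ganglion cell RNA, held the most *Gnb3*. Whether these are linked was not tested.

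The cone genes did not move as one across the libraries. Their standardized log2 CPM was averaged in each library, and each gene was correlated with this mean profile over the 6 libraries. The correlation ran from -0.14 for *Arr3* to 0.76 for *Pde6c*. Each gene is itself part of the mean profile, which tends to raise its correlation. The genes outside the lists whose profile was most like the mean were *1810011O10Rik* (Pearson r = 0.977), *Cnot7* (r = 0.971), which encodes a deadenylase subunit, and *Clic1* (r = 0.954), which encodes a chloride channel protein, among 15017 genes searched, of which 15 had r over 0.9. None of these 3 passed the threshold (adjusted p = 0.911, 0.923 and 0.849 from edgeR). With 6 libraries in which depth and group go together, such values are a description of likeness only.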

How the data were processed

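RNA of whole retina was sequenced in 3 saline-injected and 3 microbead-injected samples, grouped by the treatment label. Per the labels and methods, the authors aligned paired-end reads to GRCm38.p5 with STAR 2.5.3a and GENCODE vM12 and deposited one table of raw counts per gene from featureCounts 1.15.2. The strand setting and the treatment of multi-mapping reads are not given in the sources used here. The authors' columns of mean, fold change, p-values and significance from DESeq2 1.14 were not used, and 0 columns of per-sample values were left out.

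Counts were tested with edgeR 4.0.16 in R 4.3.3 (TMM, filterByExpr with a minimum count of 10, quasi-likelihood F test, Benjamini-Hochberg adjustment over 17707 genes, threshold 0.05). The SE is the absolute log2 fold change divided by the square root of F. CPM of members and ratios within a library were compared with two-sided exact permutation tests in scipy 1.17.1. Gene positions and transcript lengths are from a later GENCODE release of GRCm38, and positions are 1-based. Promoter windows are from RefSeq. Alternatives were other scalings and filters, DESeq2 1.42.0, limma-voom from limma 3.58.1, a replicate block, a GC and length offset (99.64% of tested genes matched), a threshold of 0.01 and each library left out. The fits were tested on simulated data with known changes.

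The 10 members and all other lists were chosen with earlier results of these data known. The genes named are the members, their rod counterparts, the members of the other lists past the threshold (or the 2 with the largest change where none passed), the 3 genes with the most similar pattern, and genes that overlap a member. Where the 2 named genes of a list shared a sign, members of the opposite sign are named too. Shutoff genes without overlap between the groups are also named. The chromosomal neighbors of the members (*Pdzd11*, *P3h3*, *Fra10ac1*, *Gnai3*, *Inpp4a* and *Cpne3*) and the ratios within the cone genes were chosen after their values were seen. One item among the rod counterparts and the ratios that need it are not reported here. Depth is the total count per library, and 3 counts correspond to 0.0621 to 0.216 CPM.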

Additional observations from a re-analysis of the deposited data

How the results depend on the processing

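Over the 10 cone genes and 17 alternatives each, 161 of 170 recomputed values kept their direction and their side of the threshold. Another 7 were past the threshold only under the alternative (6 for *Gngt2*, and *Gnb3* at 0.84 without saline replicate 1), 1 was no longer past it (*Arr3* without microbead replicate 3), and 1 changed sign, *Gnb3* without saline replicate 2 (-0.0035). The count of cone genes past the threshold, all higher, was 2 instead of 1 with RLE scaling, with upper-quartile scaling, with library sizes without the mitochondrial genes, without a filter, with at least 10 counts in every library and with DESeq2, and 0 at an adjusted p-value under 0.01. With each library left out it ran from 0 (without microbead replicate 3) to 2 (without saline replicate 1). No alternative gave a lower cone gene past the threshold. Over all genes, 2261 passed, against 3720 without a filter, 3621 with DESeq2, 905 with the replicate block, 1243 with the GC and length offset and the replicate block, 87 at 0.01, and from 46 (without microbead replicate 3) to 2621 (without saline replicate 1) with a library left out. In the other photoreceptor lists, 5 genes passed, against 9 without a filter, 9 with DESeq2, 1 with the replicate block, 0 with the offset and block, 0 at 0.01, and from 0 to 5 with a library left out. The causes were not tested. Same-numbered libraries correlated at -0.035, 0.14 and 0.010 in their deviations from the group means, and unlike-numbered libraries at -0.196 to 0.143. These values gave no sign of pairing by replicate number but cannot exclude it. With the replicate block *Arr3* was at 1.48 (adjusted p = 0.0412 from edgeR) and *Gngt2* at 0.83 (adjusted p = 0.0898 from edgeR). The log2 ratio of summed cone CPM, 0.17, was lowest without saline replicate 2 (0.031) and highest without saline replicate 1 (0.35). The count of cone to rod ratios without overlap, 4, was 4 to 6 with a library left out. Since leaving out a library cannot make separated groups overlap, this count could only stay or rise. Depth was not limiting for the cone genes, whose smallest count was 251, but 3 libraries a group limit every exact test to p = 0.1 at best.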

Other observations

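The 2 nearest protein-coding genes of each cone gene on its chromosome were listed after values had been seen. Of the 20 neighbors, 19 were tested and 6 were past the threshold, 3 higher and 3 lower (edgeR), against 12.8% of all tested genes. Besides *Pdzd11* and *Arhgdib*, the higher neighbor was *Fra10ac1* beside *Pde6c* (log2 fold change 0.90, adjusted p = 0.0298 from edgeR), while *Pde6c* itself was not past the threshold (0.30, adjusted p = 0.398 from edgeR). The lower neighbors were *Gnai3*, an inhibitory G protein α subunit beside *Gnat2* (-0.80, adjusted p = 0.0345 from edgeR), *Inpp4a*, a phosphoinositide phosphatase beside *Cnga3* (-0.69, adjusted p = 0.0393 from edgeR), and *Cpne3* beside *Cngb3* (-0.74, adjusted p = 0.0438 from edgeR). The cone genes beside them had -0.37 for *Gnat2*, -0.18 for *Cnga3* and -0.24 for *Cngb3*, and 0 of these 3 were past the threshold. The differences between neighbors were not tested.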
